A study of Homo sapiens with 6 samples.

Results

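Transcripts of the mitochondrial genome were measured in RNF25-knockdown and control SW839 cells. They were taken as every gene of the expression table whose symbol starts with MT-, which gave 36 of 30267 genes: 13 mRNAs, 2 rRNAs and 21 tRNAs. MT-TW, the one remaining tRNA among the 37 genes that GENCODE places on this genome, was not analysed here. Of the 36 genes, 24 reached a normalized count of 10 in 3 or more libraries and were tested, namely the 13 mRNAs, the 2 rRNAs and 9 tRNAs.

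SW839 is a renal cell carcinoma line. In 3 libraries (shRNF25) the cells carried a short hairpin RNA against RNF25, an E3 ubiquitin ligase, and in 3 libraries (shControl) the pLKO control vector. Both were delivered by lentivirus, and infected cells were selected with puromycin, as the study's general methods describe. The shRNF25 libraries carry the name of a single hairpin, shRNF25B, so that the hairpin and the loss of RNF25 cannot be told apart. The treatment text of the control samples also speaks of the RNF25 hairpin, and the groups therefore follow the titles and genotypes. Ribosomal RNA was depleted before sequencing, and short fragments were selected by size, so tRNA levels and rRNA levels describe what these steps left behind.

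The mitochondrial genome is a small DNA circle that is present in many copies per cell. Each of its strands is transcribed as a long precursor, in which tRNAs sit between most mRNAs and rRNAs, and excision of the tRNAs releases the other transcripts. The mRNAs encode core subunits of respiratory chain complexes I, III and IV and of ATP synthase (complex V), whereas all other subunits, the RNA polymerase and the proteins of the mitochondrial ribosome are encoded in the nucleus. The leucine-rich protein LRPPRC and its partner SLIRP bind and stabilize the mature mRNAs. The plus strand of the reference carries 12 of the mRNAs, both rRNAs and 13 of the tRNAs in the table. MT-ND6 and 8 tRNAs lie on the minus strand, opposite the precursor of the plus strand. The study describes a strand-specific library kit, but the strand setting of the counting is not given in the sources used here. If strand was not used, reads of minus-strand genes and reads antisense to them cannot be told apart.

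Several sequences matter for reading the values. The tRNA genes for cysteine, asparagine and tyrosine lie side by side on the minus strand yet differed in level. Their log2 fold changes were -0.56, 0.05 and -0.01 with all 6 libraries. Without shControl replicate 1 they were closer, at -0.35, -0.21 and -0.37. The tRNAs for arginine and glycine were among the lowest relative to shControl. All of these tRNA genes are shown in RNA sense from GENCODE transcripts (GRCh38), as DNA letters, with the anticodon in capitals.
MT-TC (chrM:5761-5826, minus strand): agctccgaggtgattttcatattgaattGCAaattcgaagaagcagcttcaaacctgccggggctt
MT-TN (chrM:5657-5729, minus strand): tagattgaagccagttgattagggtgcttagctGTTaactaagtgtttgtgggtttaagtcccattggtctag
MT-TY (chrM:5826-5891, minus strand): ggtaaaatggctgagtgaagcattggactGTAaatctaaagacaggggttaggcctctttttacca
MT-TG (chrM:9991-10058, plus strand): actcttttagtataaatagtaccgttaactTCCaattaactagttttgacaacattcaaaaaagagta
MT-TR (chrM:10405-10469, plus strand): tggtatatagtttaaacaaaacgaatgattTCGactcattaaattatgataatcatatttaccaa

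MT-ATP8 and MT-ATP6, which encode subunits of complex V, share the 46 bases in capitals at chrM:8497-8602 on the plus strand, where the end of the first reading frame runs into the start of the second. Reads in shared bases can be lost or assigned to either gene.
MT-ATP8/MT-ATP6: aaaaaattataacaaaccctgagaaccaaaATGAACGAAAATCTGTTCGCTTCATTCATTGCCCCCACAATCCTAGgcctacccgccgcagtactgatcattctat
MT-ATP6 also has a close copy in the nuclear genome, MTATP6P1. Over 681 aligned bases the genes differed at 10 positions (98.5% identity), and the 60-base stretch with the most differences is shown on the plus strand with the differing bases in capitals, from chrM:8642-8701 and chr1:633811-633870.
MT-ATP6 stretch: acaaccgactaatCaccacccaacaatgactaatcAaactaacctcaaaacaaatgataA
MTATP6P1 stretch: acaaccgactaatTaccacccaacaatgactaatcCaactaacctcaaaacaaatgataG
Short reads from such a pair can be assigned to either gene. The 50-base words of each gene were compared with the 55 annotated nuclear copies in the expression table. The share found there was 46.7% for MT-ATP6, 49.5% for MT-CO1, 43.6% for MT-ND2, 30.6% for MT-CO3 and 28.98% for MT-CO2. It was 0% for MT-RNR1 and for every tRNA, but the copies compared are named after mRNAs and MT-RNR2 only. The 0% therefore does not show that the nuclear genome holds no copy of MT-RNR1 or of the tRNAs.

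Between 18647460 and 19943154 reads per library lay on genes. RNF25 itself was at normalized counts of 694, 534 and 536 in shControl replicates 1 to 3 and at 214, 246 and 265 in shRNF25 replicates 1 to 3. The knockdown groups thus did not overlap, with a log2 fold change of -1.27 ± 0.15 (SE, n = 3 against 3, limma adjusted p = 5.85e-04). Epithelial keratins were abundant in every library, KRT8 at 22206 to 38009, and EPCAM was at 4205 to 5912. The renal factor PAX8 was detected, whereas CA9, a hypoxia-induced gene of clear cell tumors, was at 1.85 to 50.7. Of the markers of other cells, CD3E, CD68 and ALB were at or near 0, and PECAM1 was at 349.9 to 549.4. CDH5, a cadherin of endothelium, was at 73.0, 103 and 199 in shControl and at 3.64, 8.31 and 5.72 in shRNF25.

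One control library stood apart. Reads on mitochondrial genes made up 12.1% of gene reads in shControl replicate 1, 3.68% in replicate 2 and 4.16% in replicate 3, and 3.58%, 4.44% and 3.67% in shRNF25 replicates 1 to 3. The share in shControl replicate 1 was 3.10 times the mean of the other 2 controls and 2.73 times the highest of the other 5 libraries, which lay between 3.58% and 4.44%. The widest 95% Wilson interval of these shares spanned 0.0287 percentage points, which covers counting error only. Because of this library the group means differed, at 6.65% ± 4.75 in shControl and 3.89% ± 0.47 in shRNF25 (SD, n = 3 each), although the ranges overlapped. Without it the control mean was 3.92% ± 0.34 (SD, n = 2), and the shRNF25 mean was 0.994 times that value against 0.585 times with it. In bulk RNA, fewer cells or genome copies that give a transcript and less RNA from each of them cannot be told apart.

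**Figure D1:**
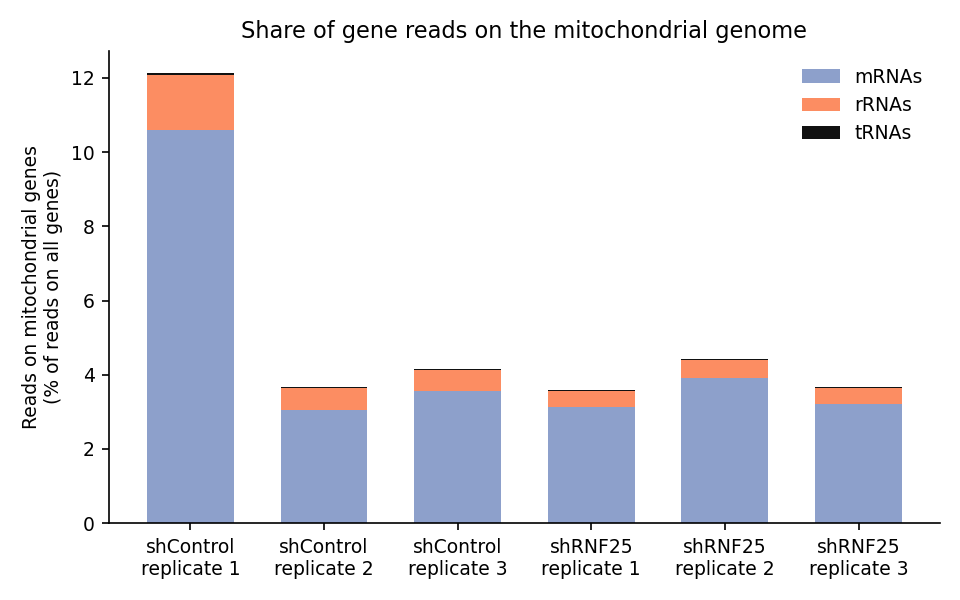
Bars give the share of all gene reads that lay on mitochondrial genes in each library, in percent, split into mRNAs, rRNAs and tRNAs (the tRNA layer is at most 0.0453% and barely visible). shControl replicate 1 reaches 12.1%, and the other 5 libraries lie between 3.58% and 4.44%.

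The excess in shControl replicate 1 was found in all 13 mRNAs but not evenly across the other transcripts. Each of the 13 mRNAs was highest in this library, between 2.07 and 5.42 times the highest of the other 5 libraries. Relative to the mean of shControl replicates 2 and 3, MT-ATP8 was 7.004 times higher, MT-ND1 5.80 times, MT-ND2 5.09 times and MT-ND4 4.72 times, whereas MT-CYB was 2.70 times and MT-ND5 2.93 times higher. MT-RNR2, the large ribosomal RNA, was 2.92 times higher and the small ribosomal RNA MT-RNR1 1.74 times. The tRNAs were split. MT-TP, the proline tRNA, was 4.95 times higher, MT-TL1 1.70 times and MT-TC 1.52 times, but MT-TN was at 0.582 times and MT-TY at 0.471 times the mean of the other controls. In all, 15 of the 24 tested transcripts (62.5%) were at least 2-fold higher in this library than that mean, a level that 2.05% of the 16554 tested genes reached.

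Nuclear genes for mitochondrial proteins did not share this excess. The median log2 ratio of shControl replicate 1 to the mean of the other controls was 1.88 over the 13 mRNAs and -0.01 over all tested genes. For nuclear-encoded respiratory chain subunits it was -0.37 (77 genes, complexes I to V), with 0 of 77 at least 2-fold higher. For genes of mitochondrial DNA copying and transcription the median was -0.02 (31 genes), for mitochondrial RNA processing -0.09 (44 genes) and for proteins of the mitochondrial ribosome -0.10 (77 genes). TFAM, which packages the genome and starts its transcription, was 1.21 times higher in this library, the RNA polymerase POLRMT was at 0.672 times, and LRPPRC was 1.19 times higher.

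The annotated nuclear copies moved with the mitochondrial genes. Of 55 copies in the table, 12 passed the filter, and 9 of these were at least 2-fold higher in shControl replicate 1, with a median log2 ratio of 2.56. The 5 with the highest mean were MTATP6P1, MTCO1P12, MTND2P28, MTND4P12 and MTCO2P12, with log2 ratios of 2.58, 2.71, 2.55, 3.22 and 2.98. Together the copies took 0.0938% of gene reads in this library and 0.0140% to 0.0274% in the other 5. How many of these reads came from the mitochondrial genome was not tested. The labels name no batch for any library, and the part of library preparation or of the state of the culture in this difference was not tested.

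**Figure D2:**
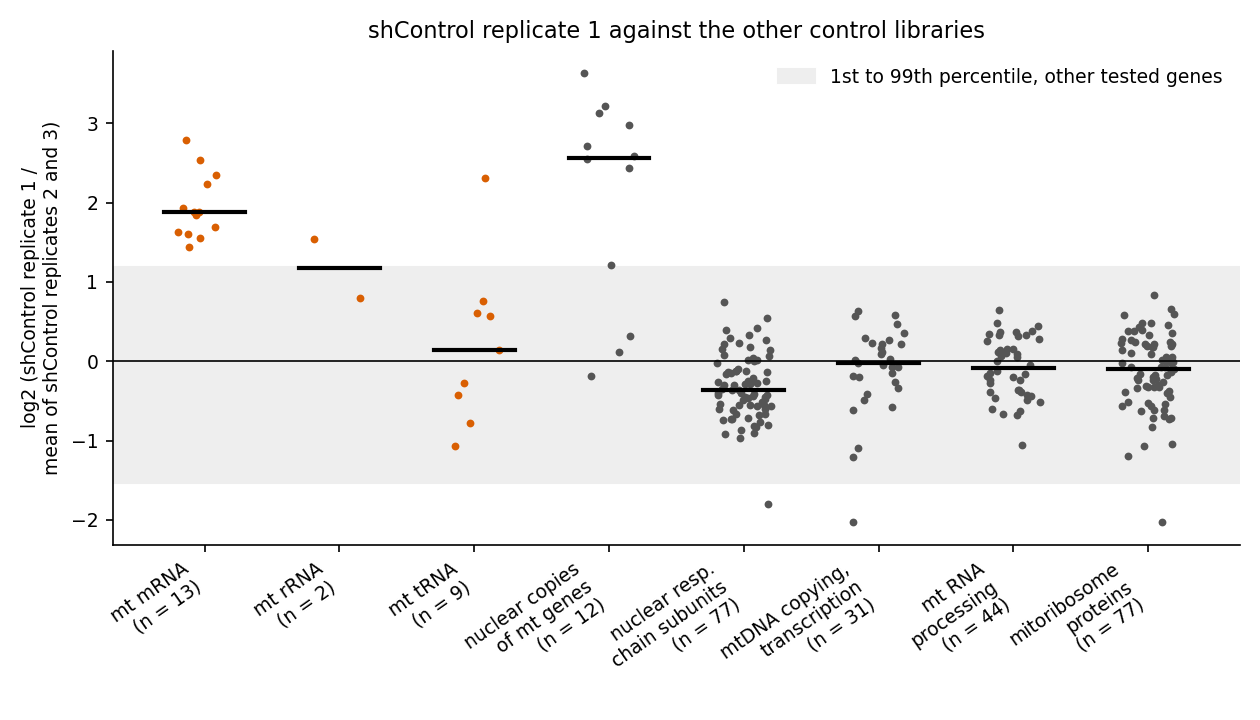
Each point is a tested gene, and the vertical axis gives the log2 ratio of its normalized count in shControl replicate 1 to the mean of shControl replicates 2 and 3. Black bars mark the median of each gene list, and the grey band spans the 1st to the 99th percentile of tested genes outside the mitochondrial genome. The 13 mitochondrial mRNAs (median 1.88) and most nuclear copies (median 2.56) lie above the band, whereas nuclear respiratory chain subunits have a median of -0.37.

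The knockdown was compared with the controls next, with all 6 libraries and without shControl replicate 1. With all 6, MT-RNR1 and the arginine tRNA MT-TR were lower in shRNF25 when an adjusted p below 0.05 was required together with a 1.5-fold or larger difference, which is 2 of 24 transcripts (8.33%) beside 7.10% of all tested genes. None of the 24 was higher by that rule in limma, edgeR or DESeq2, beside 8.65% of all tested genes, and none was higher at an unadjusted p below 0.05. By adjusted p alone 3 of 24 (12.5%) were lower, the third being the cysteine tRNA MT-TC, beside 10.8% of tested genes. The shares on the lower side were near those of all genes. MT-TR entered the test through the controls, since of the shRNF25 libraries only replicate 3 reached a normalized count of 10. The count by both criteria depended on single libraries. It was 0 without shControl replicate 2, without shRNF25 replicate 1 or without shRNF25 replicate 2, 1 without shRNF25 replicate 3, 2 without shControl replicate 1 and 5 without shControl replicate 3.

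The ribosomal RNAs were lower in every shRNF25 library than in any control, as were 21.8% of all tested genes. MT-RNR1, of the small subunit of the mitochondrial ribosome (chrM:648-1601), was at normalized counts of 26754, 18217 and 12566 in shControl and at 10555, 10956 and 10458 in shRNF25. The log2 fold change was -0.78 ± 0.23 (SE, limma adjusted p = 0.0393) with all 6 libraries and -0.51 ± 0.14 (adjusted p = 0.0199) without shControl replicate 1. It was no longer past the threshold without shControl replicate 2 or without any one of the shRNF25 libraries, and over 19 alternatives the adjusted p ran from 0.00279 to 0.133. MT-RNR2, of the large subunit (chrM:1671-3229), was at 300217, 104697 and 101171 in shControl and at 65281, 79014 and 69223 in shRNF25. Its log2 fold change of -1.05 ± 0.36 did not pass with all 6 libraries (adjusted p = 0.0688), whereas without shControl replicate 1 the difference was smaller and passed (-0.54 ± 0.13, adjusted p = 0.0140). It also passed without shControl replicate 3, and the adjusted p ran from 0.00555 to 0.432 over the alternatives. Of the 12 alternatives that kept all 6 libraries, MT-RNR2 passed in 3. These were edgeR (adjusted p = 0.0477), limma with library weights by group (0.0117) and limma with a replicate block (0.0199). In DESeq2 it did not pass (adjusted p = 0.101). For both genes the exact permutation test of the 6 values gave a two-sided p of 0.1, the smallest that 3 against 3 libraries allow.

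Relative to the summed mRNAs of the same library, MT-RNR2 was also lower in all shRNF25 libraries, but MT-RNR1 was not. There were 13.996, 19.9 and 15.8 rRNA reads per 100 mitochondrial mRNA reads in shControl and 13.7, 12.6 and 13.7 in shRNF25, so the groups did not overlap, although shControl replicate 1 lay close to shRNF25. Taken alone, MT-RNR2 gave 12.9, 16.9 and 14.1 reads per 100 mRNA reads in shControl and 11.8, 11.1 and 11.9 in shRNF25. MT-RNR1 gave 1.15, 2.95 and 1.75 in shControl and 1.91, 1.53 and 1.80 in shRNF25, so the groups overlapped and shControl replicate 1 was the lowest of the 6. Within each library the ratio of MT-RNR2 to MT-CO1 was 0.300, 0.334 and 0.302 in shControl and 0.253, 0.241 and 0.241 in shRNF25. This ratio does not depend on the scaling between libraries, and shControl replicate 1 was not apart from the other controls in it. MT-CO1 is only 1 of the 13 mRNAs that could serve as the denominator. Against most of the others, MT-ND1 and MT-CYB among them, the ratio of MT-RNR2 overlapped between the groups. Depletion of ribosomal RNA precedes these counts, and its evenness between libraries was not tested.

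**Figure D3:**
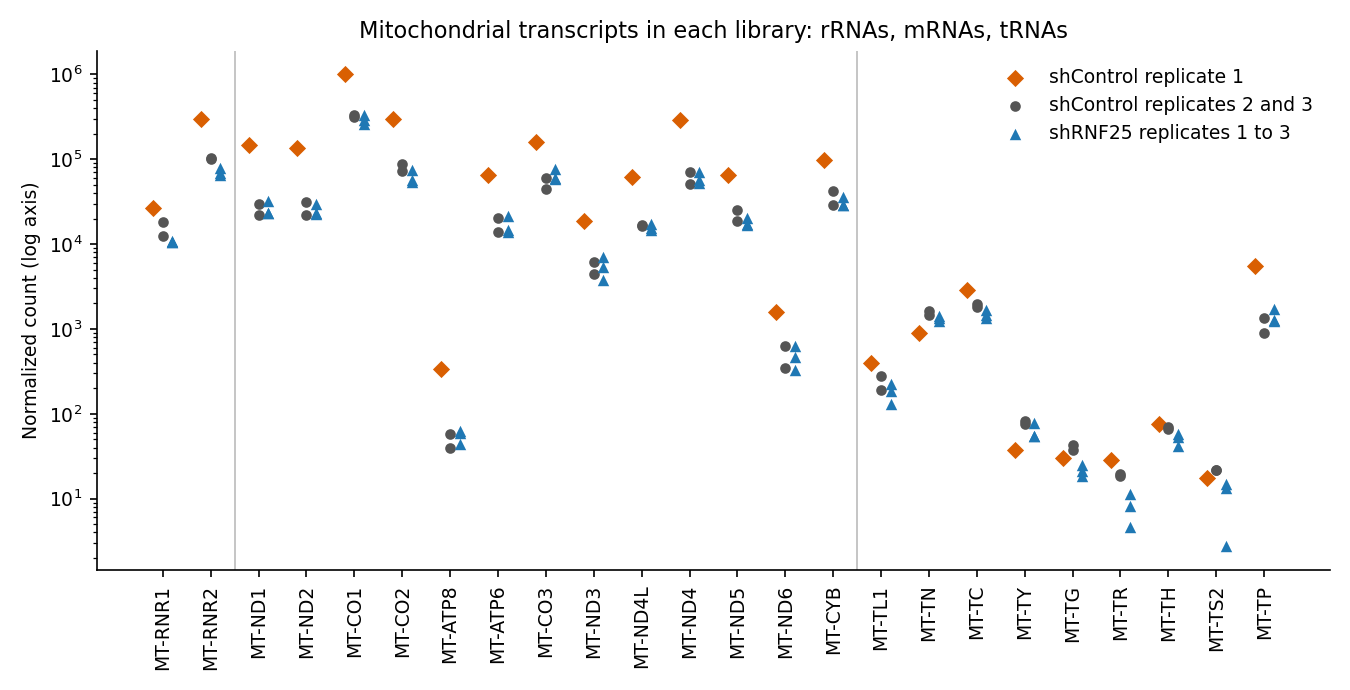
Points give the normalized count of the 24 tested transcripts in each library on a log axis, with rRNAs, mRNAs and tRNAs separated by grey lines. Orange diamonds (shControl replicate 1) lie above all other libraries for the 13 mRNAs and both rRNAs, and blue triangles (shRNF25) lie below every control for both rRNAs and for 5 tRNAs.

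None of the mRNAs passed the main test, and the groups overlapped for all 13, although 8 had at least 1 shRNF25 library below the lowest control. An alternative with library weights by group called MT-CO2 and MT-ND5 lower, and the fit without shControl replicate 3 called MT-ND5 lower. With all 6 libraries the log2 fold changes ran from -0.24 (MT-CO3) to -1.01 (MT-CO2), with a median of -0.71 beside -0.01 over all tested genes. Limma's adjusted p was between 0.137 and 0.701, and 1 of the 13 (MT-CO2) had an unadjusted p below 0.05, as had 4 with edgeR and 0 with DESeq2, neither of which called any. Without shControl replicate 1 the median was -0.05, with 9 of 13 below 0 and values from -0.38 (MT-CO2) to 0.30 (MT-CO3). The adjusted p then ran from 0.108 to 0.999, and the 95% intervals lay between -0.76 and 0.72, with 0 inside 12 of the 13 (all but MT-CO2). Most of the size of the median thus came with 1 control library, and without it the median lay near that of all tested genes (-0.01). The mean share of gene reads on mitochondrial mRNAs was then slightly higher in shRNF25 (3.42%) than in shControl (3.31%). No direction was therefore shown for the mRNAs as a whole without shControl replicate 1.

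Subunits of complex I, which passes electrons from NADH to ubiquinone, are encoded by 7 of the mRNAs. MT-ND1 was at 149130, 22108 and 29321 in shControl and at 23172, 32560 and 23323 in shRNF25, so that shRNF25 lay within the span of controls 2 and 3 or above it. Its log2 fold change was -0.82 ± 0.58 with all libraries and 0.03 ± 0.17 without shControl replicate 1. MT-ND5 was at 64650, 25550 and 18651 in shControl and at 17025, 20148 and 16805 in shRNF25 (log2 fold change -0.81 ± 0.37, and -0.28 ± 0.14 without shControl replicate 1). The other 5 complex I mRNAs had log2 fold changes from -0.61 (MT-ND6) to -0.86 (MT-ND2), which became -0.09 (MT-ND4L) to 0.00077 (MT-ND3) without that library. MT-ND6, the only mRNA of the minus strand, gave 0.672, 1.02 and 0.478 reads per 1000 plus-strand mRNA reads in shControl and 0.838, 0.877 and 0.562 in shRNF25. The balance between the strands therefore varied as much among controls as between groups.

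MT-CYB, cytochrome b of complex III, was at 96664, 29135 and 42355 in shControl and at 29017, 35452 and 28753 in shRNF25 (log2 fold change -0.67 ± 0.36, and -0.18 ± 0.16 without shControl replicate 1). Of the complex V mRNAs, MT-ATP6 was at 64930, 13899 and 20207 in shControl and at 14691, 21275 and 13711 in shRNF25. MT-ATP8, on the same transcript as MT-ATP6, was at only 340, 40.0 and 57.2 in shControl and at 43.7, 62.8 and 59.1 in shRNF25. Its mean per kilobase in shRNF25 was 267 normalized counts, beside 24315 for MT-ATP6. The part of the shared bases and of fragment selection in this gap was not tested.

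The catalytic core of complex IV, cytochrome c oxidase, is encoded by MT-CO1, MT-CO2 and MT-CO3. MT-CO1 was the most abundant transcript at 1000585, 313766 and 335284 in shControl and at 258365, 328510 and 286977 in shRNF25, with 42.8% to 50.7% of mitochondrial mRNA reads in the controls and 45.96% to 49.3% in shRNF25. Per kilobase its mean in shRNF25 was 188900 normalized counts, ahead of MT-CO2 at 90823, MT-CO3 at 82642 and MT-ND4L, which shares 7 bases with MT-ND4, at 52763. MT-CO2 was at 295512, 73529 and 87125 in shControl and at 53734, 75433 and 57202 in shRNF25. MT-CO3 was at 159891, 45058 and 60396 in shControl and at 59499, 77068 and 57807 in shRNF25. For MT-CO2 the shRNF25 values lay below or within controls 2 and 3, and for MT-CO3 within or above them.

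Relative to the other mRNAs of the same library, MT-CO2 was lower and MT-CO3 higher in all shRNF25 libraries. MT-CO2 took 12.6%, 11.9% and 12.1% of mitochondrial mRNA reads in shControl and 9.74%, 10.6% and 9.83% in shRNF25. MT-CO3 took 6.84%, 7.29% and 8.41% in shControl and 10.8%, 10.8% and 9.93% in shRNF25. The shares of the other 11 mRNAs overlapped between the groups. For the shares of MT-CO2 and MT-CO3 the exact permutation test gave a two-sided p of 0.1, the smallest that 3 against 3 libraries allow. In normalized counts, another measure, 21.8% of all tested genes were lower and 20.7% higher in shRNF25 without overlap. The ratio of MT-CO3 to MT-CO2 was 0.541, 0.613 and 0.693 in shControl (mean 0.616 ± 0.076) and 1.11, 1.02 and 1.01 in shRNF25 (mean 1.05 ± 0.05, SD, n = 3 each). Both genes lie on the plus strand, at chrM:7586-8269 and chrM:9207-9990, and the ratio does not depend on scaling. It was picked after the values were seen. Of the 78 ratios between mRNAs, 13 did not overlap between the groups (16.7%), and MT-CO3 was part of 10 of them, MT-CO2 of 4, and both of 1. Ratios that hold the same mRNA are not separate results. MT-CO2 and MT-CO3 both have nuclear copies that can take reads, and the part of these copies in their ratio was not tested.

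**Figure D4:**
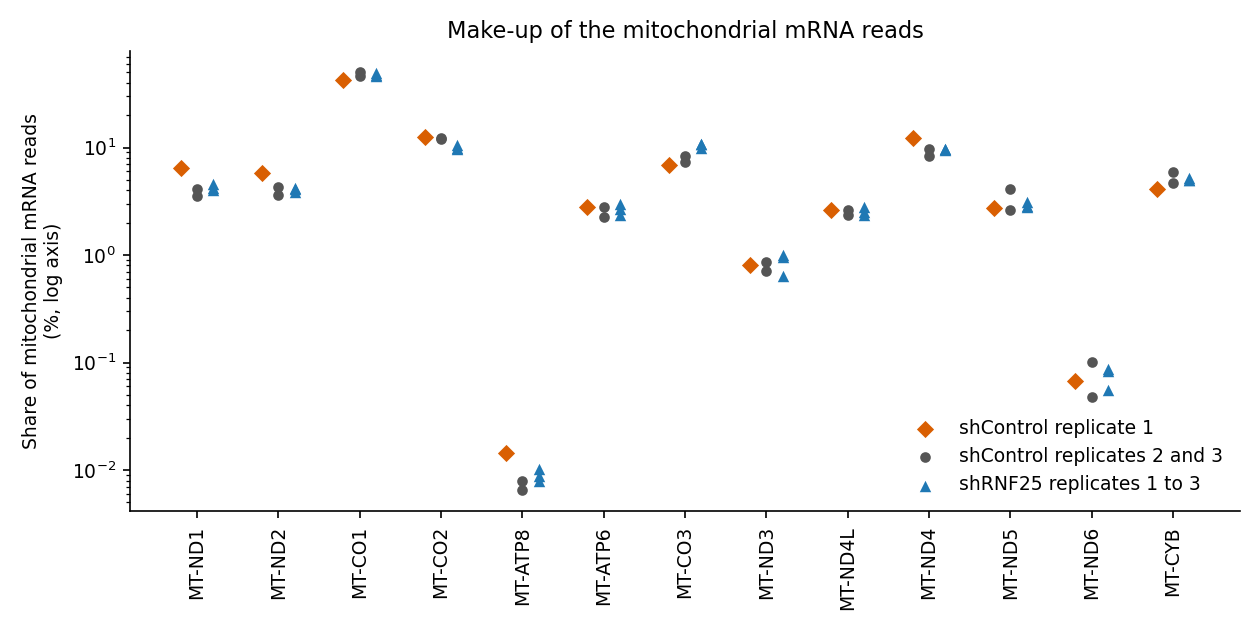
Points give each mRNA's share of the mitochondrial mRNA reads of its library, in percent on a log axis. MT-CO2 is lower and MT-CO3 higher in all 3 shRNF25 libraries (9.74% to 10.6% and 9.93% to 10.8%) than in any control, and the other 11 mRNAs overlap.

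Among the tRNAs, 5 of the 9 tested had lower normalized counts in every shRNF25 library than in any control, beside 21.8% of all tested genes. Over all 24 tested mitochondrial transcripts this share was 29.2%. MT-TC, the cysteine tRNA, was at 2902, 1986 and 1837 in shControl and at 1359, 1658 and 1479 in shRNF25. It fell by 0.56 ± 0.17 on the log2 scale (SE, limma adjusted p = 0.0479) and by 0.35 ± 0.09 (adjusted p = 0.0176) without shControl replicate 1. Without shControl replicate 2 or any one shRNF25 library it did not pass, and its adjusted p ran from 0.0170 to 0.192 over the alternatives. Its neighbor MT-TN, for asparagine, was lowest in shControl replicate 1, at 893, against 1611 and 1460 in the other controls and 1250, 1335 and 1407 in shRNF25. Its log2 fold change was 0.05 ± 0.20 with all libraries and -0.21 ± 0.08 (adjusted p = 0.0824) without that library, so neither its direction nor its place was stable. MT-TY, for tyrosine, was at 37.6, 83.1 and 76.6 in shControl and at 54.7, 54.5 and 78.2 in shRNF25, and its direction also turned between settings.

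The other low tRNAs rested on few reads. MT-TR, for arginine, had 26, 18 and 18 reads in shControl and 9, 5 and 12 in shRNF25, or normalized counts of 28.7, 18.5 and 19.4 against 8.20, 4.62 and 11.4. Its log2 fold change was -1.40 ± 0.37 (adjusted p = 0.0261) with all libraries and -1.21 ± 0.40 (adjusted p = 0.0439) without shControl replicate 1, and edgeR and DESeq2 gave adjusted p = 0.0250 and 0.0262. It did not pass without shControl replicate 2, shRNF25 replicate 1 or shRNF25 replicate 2, and its adjusted p ran from 0.0134 to 0.104 over the alternatives. MT-TG, for glycine, had 27, 42 and 35 reads in shControl and 23, 20 and 26 in shRNF25. Its log2 fold change of -0.75 ± 0.24 did not pass with all libraries (adjusted p = 0.0572) and passed without shControl replicate 1 (-0.89 ± 0.24, adjusted p = 0.0205), with a range of 0.0197 to 0.205 over the alternatives. MT-TH, for histidine, and MT-TS2, for serine, did not overlap in normalized counts either, with log2 fold changes of -0.47 (adjusted p = 0.119) and -1.16 (adjusted p = 0.144). MT-TH had 68, 69 and 61 reads in shControl and 46, 63 and 56 in shRNF25. MT-TS2 had 16, 21 and 20 reads in shControl and 3, 16 and 14 in shRNF25. As a share of all gene reads, MT-TG and MT-TS2 overlapped between the groups, so for both the lack of overlap depended on the scaling.

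MT-TL1 for leucine (-0.66, adjusted p = 0.124) and MT-TP for proline (-0.43, adjusted p = 0.603) overlapped between the groups, and MT-TP was 0.35 without shControl replicate 1. The 12 tRNAs below the filter had between 0 and 20 reads per library, and 5 of them had at most 3 reads in every library. MT-TE, for glutamate, had 0, 1 and 1 reads in shControl and 0 in each shRNF25 library, where a count of 0 allows up to 3 reads. These 12 were too shallow to show a difference.

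Across all 24 tested transcripts, 7 (29.2%) had lower normalized counts in all 3 shRNF25 libraries than in all 3 controls, the 2 rRNAs and 5 tRNAs, beside 21.8% of tested genes. None was higher without overlap, beside 20.7% of tested genes. Without shControl replicate 1 the count was 8 of 24 (33.3%), with MT-TN added, beside 29.9% of the 16330 genes then tested. In the same fit 5 of 24 (20.8%) passed an adjusted p below 0.05 on the lower side, namely MT-RNR1, MT-RNR2, MT-TC, MT-TG and MT-TR, beside 17.9% of genes. The shares on the lower side lay near their backgrounds.

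**Figure D5:**
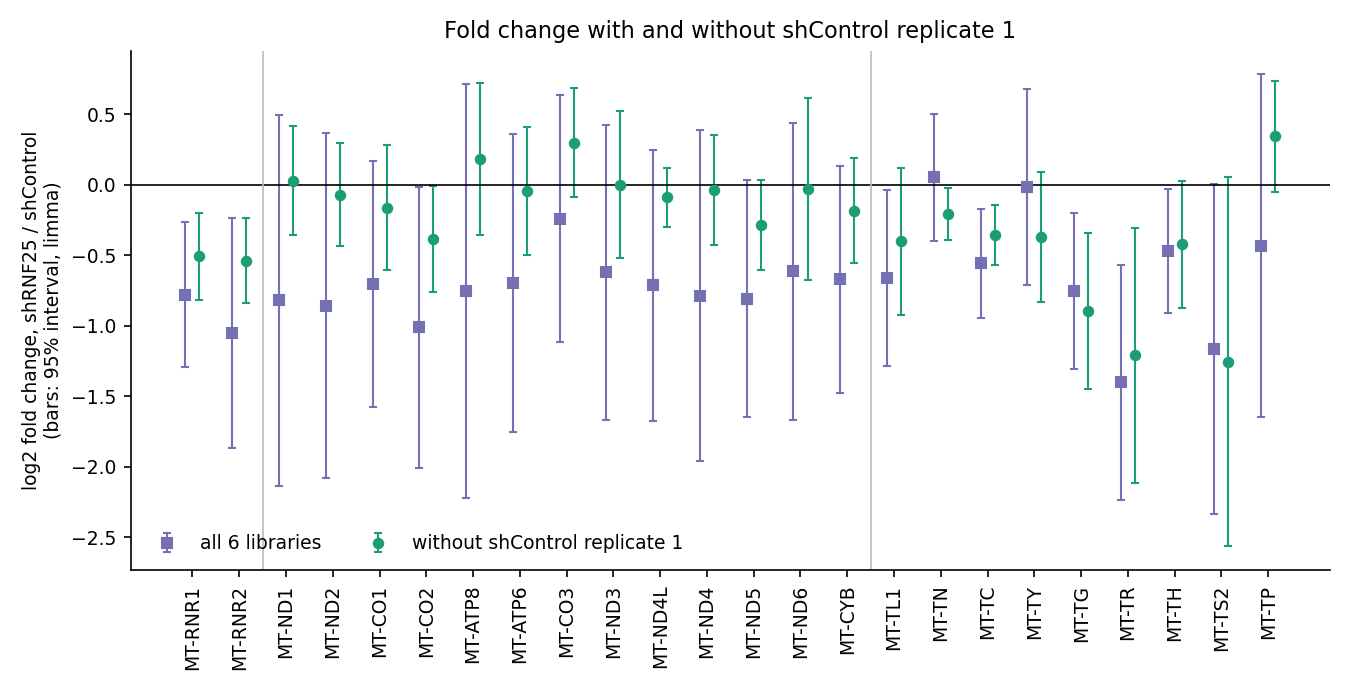
Points give the log2 fold change of each tested transcript in shRNF25 relative to shControl, with 95% intervals from limma, for all 6 libraries (squares) and without shControl replicate 1 (circles). The mRNAs move from a median of -0.71 to -0.05. Both rRNAs, MT-TC, MT-TG, MT-TR and, of the mRNAs, MT-CO2 stay below 0 with intervals that leave out 0, for MT-CO2 narrowly.

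Nuclear genes of the same pathways were examined beside these transcripts. By both criteria 7.1% of all tested genes were lower and 8.65% were higher. Of 77 respiratory chain subunits tested, 1 was higher by both criteria, NDUFC2 of complex I (log2 fold change 0.60 ± 0.14, adjusted p = 0.0158), and 0 were lower, with 3 lower at an unadjusted p below 0.05 and 0 called lower by edgeR or DESeq2. The higher calls numbered 2 in edgeR and 4 in DESeq2. By adjusted p alone 0 subunits were lower and 3 higher. Without shControl replicate 1, 9 were lower and 6 higher, beside 2915 lower and 2614 higher of the 16330 genes then tested. The median of the subunits was 0.09, and without shControl replicate 1 it was -0.04. In the list of mitochondrial DNA copying and transcription, 1 of 31 was higher, TK2, which makes nucleotides for the genome (0.77 ± 0.17, adjusted p = 0.0113), and 0 were lower, with 5 lower at an unadjusted p below 0.05 and 0 called lower by the other tools. TFAM (0.21, adjusted p = 0.341) and POLRMT (-0.29, adjusted p = 0.237) did not pass, and POLRMT did so without shControl replicate 1 (-0.48, adjusted p = 0.00312).

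SLIRP was the only 1 of 44 genes of mitochondrial RNA processing and decay that was lower by both criteria. It was at 1315, 1503 and 1419 in shControl and at 927, 935 and 933 in shRNF25, a log2 fold change of -0.60 ± 0.10 (adjusted p = 0.00384) and of -0.65 (adjusted p = 2.14e-04) without shControl replicate 1. In edgeR 0 of the 44 were called lower and 3 had an unadjusted p below 0.05. Its partner LRPPRC was at 0.01 ± 0.11 (adjusted p = 0.944). Beside 7.1% of all tested genes lower and 8.65% higher, 3 of 77 proteins of the mitochondrial ribosome were lower and 0 higher. They were MRPS24 (-1.09 ± 0.20, adjusted p = 0.00488), MRPS18A (-0.63 ± 0.13) and MRPL2 (-0.59 ± 0.14), where edgeR, DESeq2 and limma without shControl replicate 1 each called 2 lower, and 2 others were higher at an unadjusted p below 0.05, with 0 called higher by edgeR or DESeq2. By adjusted p alone 6 of the 77 were lower and 1 was higher, and without shControl replicate 1 the counts were 13 and 2. Of all tested genes 10.8% were lower by adjusted p, and 17.9% without that library. The shares of this list on the lower side were thus not above those of all tested genes. The nuclear copies had a median log2 fold change of -0.73 with all libraries (12 tested, 1 lower by both criteria, MTCYBP21 at -2.03, named after its values were seen) and of 0.16 without shControl replicate 1 (9 tested, 0 called, 0 at an unadjusted p below 0.05).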

How the data were processed

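The authors deposited 1 table of normalized counts, a signal made by dividing gene read counts by 1 factor per library, for 6 libraries of SW839 cells. Per the labels, reads passed through fastp, HISAT2 and HTSeq on GRCh38. Versions, annotation release and strand setting are not given in the sources used here. The study describes total RNA depleted of ribosomal RNA and tests with DESeq2. Labels do not say which replicates came from separate cultures beyond calling them biological triplicates, so p-values measure the spread between these libraries.

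Each library's values were multiples of 1 step, which gave back whole reads for 100% of values (tolerance 0.01 reads). Samples were grouped by title. Values were compared as log2(normalized count + 1), with folds on that scale, by limma 3.58.1 (lmFit, eBayes with a trend; R 4.3.3) over 16554 genes with at least 10 in at least 3 libraries, with Benjamini-Hochberg adjustment over all of them. A call needed an adjusted p below 0.05 together with a 1.5-fold or larger difference. Means are given ± SD and fold changes ± SE. edgeR 4.0.16 and DESeq2 1.42.0 were run on the recovered reads. On simulated data with 16500 genes, of which 200 were changed, each tool recovered 200. False calls numbered 2 for limma, 2 for edgeR and 0 for DESeq2. The power to find small differences, or differences in genes of few reads, in the real libraries was not tested. Alternatives covered pseudocount, filter, scaling, tool, library weights, replicate block, thresholds and each library left out. A fit with edgeR without shControl replicate 1 was added after seeing the data.

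Every mitochondrial gene was accounted for, with full values for the called ones and those with the largest and smallest change. From each nuclear list the called genes with the largest change were named, at most 5, plus RNF25, LRPPRC, SLIRP, TFAM and POLRMT, and from the nuclear copies the 5 with the highest mean. Transcripts and lists were chosen with earlier results of these data known. Gene positions and sequences came from GENCODE 29 (GRCh38).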

Additional observations from a re-analysis of the deposited data

How the results depend on the processing

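Replicate numbers did not pair the libraries (correlations of the deviations of same-numbered libraries of -0.064, -0.087 and 0.047), and across groups not every library correlated best with its own number. With a replicate block 3 mitochondrial transcripts were called lower (MT-RNR1, MT-RNR2 and MT-TR), and all calls went from 2607 to 2591 genes. The 2 called lower without it became 1 with no filter, with a filter at 50, with either scaling to total reads or with a fold of at least 2, became 4 with library weights by group, and ranged from 0 to 5 with a library left out. With the filter at 50, MT-TR was not tested. The median of the 13 mRNAs ranged from -1.05 to -0.05 and the difference in the mitochondrial share of reads (shRNF25 minus shControl) from -4.25 to -0.02 percentage points with a library left out. Past an adjusted p of 0.05 were MT-TR in 14 of 18 alternatives, MT-RNR1 in 11 of 19 and MT-TC in 9 of 19. MT-RNR2 passed in 6 of 19, MT-TG in 3 of 18, MT-ND5 in 2 of 19 and MT-CO2 in 1 of 19. All of these had a negative sign throughout. Of the nuclear respiratory chain, expression and ribosome genes, 4 were called lower, against 2 with quantile normalization or edgeR, 1 with median-ratio scaling, either total scaling or a fold of 2, and 9 by adjusted p alone (2 to 8 with a library left out). The 2 called higher became 4 with median-ratio scaling or the block, 10 with either total scaling, 5 with DESeq2 or weights, 0 at a fold of 2 and 7 by adjusted p alone (0 to 6 with a library left out).

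Scaling to total reads moved the median of all genes to 0.19 (0.15 without mitochondrial reads), and higher genes then made up 77.9% and 74.5% of calls against 54.9%. Relative to these medians the mRNAs stayed at -0.70 under both. Signs turned for MT-TY with median-ratio scaling (0.050), total scaling (0.19 and 0.15) and with a library left out (-0.37 to 0.19), and with quantile normalization for MT-CO3 (0.62) and MT-ND4 (0.10). Without shControl replicate 1, signs turned in limma and edgeR for MT-ND1 (0.031 and 0.051), MT-TN (-0.21 and -0.19), MT-ATP8 (0.19 and 0.20), MT-CO3 (0.30 and 0.31), MT-ND3 (0.00077 and 0.045) and MT-TP (0.35 and 0.35). With a library left out these ranged from -1.35 to 0.031 for MT-ND1, -0.21 to 0.22 for MT-TN, -1.34 to 0.19 for MT-ATP8, -0.61 to 0.30 for MT-CO3, -1.05 to 0.00077 for MT-ND3 and -0.96 to 0.35 for MT-TP. The cause of these shifts was not tested. A filter in leave-out fits needed 3 of 5 libraries. Depth limited the 12 tRNAs of at most 20 reads.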

Other observations

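RN7SL1, an abundant short structured RNA of the signal recognition particle, was at normalized counts of 181, 560 and 287 in shControl replicates 1 to 3 and at 1717, 400 and 427 in shRNF25 replicates 1 to 3. It was listed as a readout of short structured fragments and did not pass the test (log2 fold change 1.11).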
